A study of Mus musculus with 6 samples.

Results

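The epithelial keratins examined here are Krt4, Krt5, Krt7, Krt8, Krt14, Krt15, Krt17, Krt18, Krt19 and Krt20, the keratins of simple and basal epithelia. They were chosen by gene symbol and make up 10 of the 57127 genes listed in the count table, and 9 of them had enough counts to be among the 19691 genes tested. Whole epididymis of adult C57BL/6 mice was compared between wild type (WT) and Ocln-/- (Ocln-KO) animals, with 3 RNA-seq libraries of each genotype and 6 in all. Ocln encodes occludin, a membrane protein of tight junctions, and the knockout mice came from heterozygous pairings, with no Cre or tissue-specific promoter named, so that loss was not limited to the epididymis or to 1 cell type. By the study's methods, 3 pairs of mice gave RNA separately, yet the libraries are also described as made from pooled RNA, so n counts libraries here and p-values measure the spread between libraries.

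Keratins are the intermediate filaments of epithelial cells. A filament needs a type II keratin (Krt4, Krt5, Krt7 and Krt8 here) paired with a type I keratin (Krt14, Krt15, Krt17, Krt18, Krt19 and Krt20 here). Krt8 and Krt18 are the pair of simple epithelia such as the columnar cells of the epididymal duct, whereas Krt5 and Krt14 are the pair of basal cells, which lie on the basement membrane of the duct.

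Total counts ran from 35066211 to 38870780 in the WT libraries and from 30646424 to 32776523 in the Ocln-KO libraries. Ocln itself fell from 85.5 ± 6.51 to 15.1 ± 0.231 CPM (a gene's counts relative to the scaled size of its library; SD, n = 3 each), so each library followed its label. On the first principal component of all tested genes, which took 47.2% of the variance, the Ocln-KO libraries lay at 17.7, 29.1 and 86.3 and the WT libraries between -52.8 and -37.0. Ocln-KO replicate 3 thus lay farthest from the WT libraries on this component. Fold changes of the called keratins are also given without it, and those of the other tested keratins as ranges with each library left out. By the chi-square of counts per gene, it was nearer to Ocln-KO replicate 2 (57.4) than Ocln-KO replicate 1 was (63.9). Its value was 126 against Ocln-KO replicate 1 and 160 to 230 against the WT libraries. Ocln-KO replicates 1 and 2 had values of 70.6 to 126 against the WT libraries, which were at 15.3 to 35.3 among themselves. The summed CPM of 6 spermatid and sperm genes was 64.2 in Ocln-KO replicate 3 and between 189 and 270 in the other 5. A protocol field of the sample records names prefrontal cortex rather than epididymis. The epididymal gene Crisp1 was at 14891 ± 2188 CPM in WT, whereas the summed CPM of 9 brain cortex genes ran from 29.5 to 38.2 over the 6 libraries. Of these 9, Snap25 and Gad2 had at most 2 counts in any library, while Syt1 had 316 to 413, Rbfox3 176 to 360 and Mbp 359 to 563.

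Krt7, Krt8 and Krt18 lie in the keratin cluster of chromosome 15 on GRCm38, and the promoters of these 3 genes are shown because the genes lie in 1 cluster yet differed in their change between the genotypes. Krt7 spans chr15:101411043-101430313 on the plus strand and Krt8 spans chr15:101996698-102004482 on the minus strand. Krt18, a type I gene inside the type II cluster, spans chr15:102028180-102032027 on the plus strand. The sequences are the 250 bases before the RefSeq start site, 5′ to 3′ on the strand of the gene (GRCm38.p6), at chr15:101412153-101412402 for Krt7, chr15:102004343-102004592 for Krt8 and chr15:102027966-102028215 for Krt18. The RefSeq starts of Krt7, Krt8 and Krt18 lie 1360, 140 and 36 bases inside the gene starts of GENCODE. The Krt7 window thus lies wholly, and the Krt8 and Krt18 windows partly, within the gene as GENCODE annotates it. Capitals mark GGGCGG, the GC box bound by Sp1-type factors, on either strand.
Krt7: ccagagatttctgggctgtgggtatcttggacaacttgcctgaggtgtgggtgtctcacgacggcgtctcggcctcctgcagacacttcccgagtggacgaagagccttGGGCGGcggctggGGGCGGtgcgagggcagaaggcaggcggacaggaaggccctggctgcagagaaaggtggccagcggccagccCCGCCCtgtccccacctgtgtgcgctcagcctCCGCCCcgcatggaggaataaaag
Krt8: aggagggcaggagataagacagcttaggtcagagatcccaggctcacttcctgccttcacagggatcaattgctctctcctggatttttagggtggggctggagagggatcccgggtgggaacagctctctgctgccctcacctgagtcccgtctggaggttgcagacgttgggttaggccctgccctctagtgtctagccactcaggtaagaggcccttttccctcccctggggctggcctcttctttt
Krt18: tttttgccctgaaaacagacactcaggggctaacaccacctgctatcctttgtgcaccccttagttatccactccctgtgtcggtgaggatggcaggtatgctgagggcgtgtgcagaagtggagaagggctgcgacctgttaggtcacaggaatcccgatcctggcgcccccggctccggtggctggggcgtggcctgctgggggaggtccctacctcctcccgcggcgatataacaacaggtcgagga

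The Krt7 window held 4 GC boxes and a GC content of 66%, whereas the Krt8 window (58% GC) and the Krt18 window (60.4% GC) held none. Among 32851 promoter windows of the same length, 32.7% held GGGCGG on either strand. Of the 10 keratins, 6 had an entry in the promoter table, namely Krt5, Krt7, Krt8, Krt14, Krt18 and Krt20, the window of Krt14 lying at an internal start 1518 bases inside the gene. Searched on both strands, TGANTCA (the AP-1 site) and AACCNGTT (the site of grainyhead-like factors) matched none of these 6 windows, against 6.75% and 1.79% of all windows. TATAAA matched the Krt20 window alone among the 6, at 29 bases before its start, against 12.4% of all windows.

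Of the 9 tested keratins, Krt14 and Krt19 were higher and Krt7 was lower in Ocln-KO at an adjusted p under 0.05 (edgeR's quasi-likelihood test, Benjamini-Hochberg over all genes tested). Krt14 rose 1.49-fold, Krt19 rose 1.73-fold and Krt7 fell to 0.570 of its WT level. Among all tested genes, 3.91% were called higher and 5.04% lower, and 2 and 1 keratins among 9 are too few to set against those shares. For 4 of the 9 keratins (Krt7, Krt8, Krt14 and Krt19) the WT and Ocln-KO libraries had no overlap, against 36.3% of all tested genes. The median log2 fold change was 0.20 over the 9 keratins and 0.01 over all tested genes. None of these 9 also had a fold over 2 or under 0.5, the added limit of the study's methods, and Krt4, which was not tested in this fit, is described separately.

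**Figure D1:**
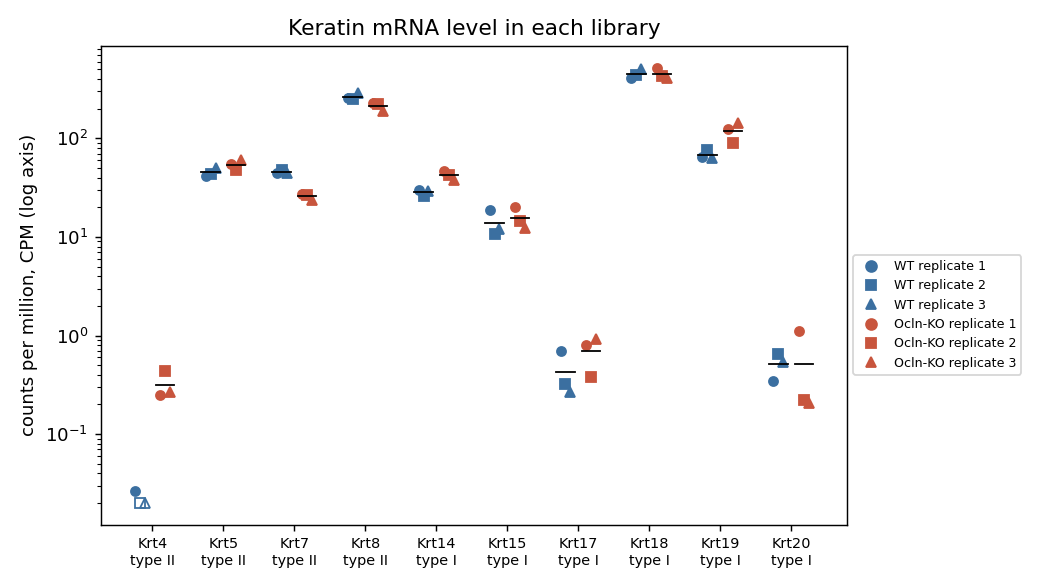
CPM of each keratin (log axis) in the 3 WT and the 3 Ocln-KO libraries, 1 point per library. Hollow points at the bottom of the Krt4 column stand for WT replicates 2 and 3, which had 0 counts. The libraries of the genotypes are apart for Krt4, Krt7, Krt8, Krt14 and Krt19.

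Krt18 and Krt8, the simple epithelial pair, had the highest levels of the 10 keratins. Krt8 stood at 255, 250 and 288 CPM in the WT libraries and at 231, 221 and 188 CPM in the Ocln-KO libraries. Each Ocln-KO library was below each WT library, but the difference missed the threshold. The log2 fold change of Krt8 was -0.31 (SE 0.11, 95% CI -0.56 to -0.06), with an unadjusted p of 0.0211 and an adjusted p of 0.108 by edgeR. Krt18 stood at 414, 436 and 509 CPM in WT and at 521, 430 and 408 CPM in Ocln-KO. The ranges of the genotypes overlapped and the means were 453 ± 49.6 and 453 ± 60.4 CPM (SD, n = 3 each). The log2 fold change of Krt18 was -0.00079 (SE 0.13, 95% CI -0.30 to 0.30, adjusted p = 0.998, edgeR), and its sign turned with the scaling of the libraries. By the root mean square difference of centred log2 CPM over the 6 libraries, Mark2 (0.0224), 9330151L19Rik (0.0253) and Rexo1 (0.0304) followed Krt18 most closely. Of the 75-base windows along the Krt8 transcript, 22% also occur in its pseudogene Krt8-ps, which had 30 to 117 counts per library against 6346 to 10707 for Krt8. Gm36026, which overlaps Krt8 on the opposite strand, had 41 to 150 counts, and the strand setting of the counting was not given in the sources used here. Krt7 is likewise overlapped on the opposite strand by Gm671 and Krt5 by Gm44323, and the counts of these overlapping genes were not examined.

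The Krt8 to Krt18 count ratio within a library does not depend on how the libraries are scaled. It was 0.617, 0.573 and 0.567 in WT and 0.443, 0.514 and 0.461 in Ocln-KO. All 3 Ocln-KO ratios lay below all 3 WT ratios. On the log2 scale the means were -0.77 ± 0.07 and -1.08 ± 0.11, a difference of -0.31 (exact two-sided permutation test, p = 0.1, the smallest that 3 libraries against 3 allow). Leaving out 1 library in turn gave differences from -0.37 to -0.27.

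Krt7, a type II keratin of simple epithelia and ducts, was the keratin called lower. It stood at 44.1, 48.0 and 44.5 CPM in WT and at 27.2, 26.8 and 23.9 CPM in Ocln-KO. The WT libraries lay close together, as did the Ocln-KO libraries, with a clear gap between them. The means were 45.5 ± 2.17 and 26.0 ± 1.83 CPM (SD, n = 3 each), and the log2 fold change was -0.81 (SE 0.09, 95% CI -1.03 to -0.59, adjusted p = 0.00863, edgeR). It was -0.75 with an adjusted p of 0.00593 without Ocln-KO replicate 3. The call was lost without WT replicate 1 (adjusted p = 0.061) and without WT replicate 3 (adjusted p = 0.0515), at fold changes of -0.83 and -0.82. The count ratio of Krt7 to Krt8, added after the values were seen and not tested, was 0.173, 0.192 and 0.154 in WT and 0.118, 0.121 and 0.127 in Ocln-KO. Krt7 thus also stood lower relative to Krt8, by 0.50 on the log2 scale. Upk1a, a uroplakin of the urothelium, which also contains Krt7, fell from 62.8 ± 7.76 to 24.8 ± 9.60 CPM (log2 fold change -1.34, adjusted p = 0.0287), while 0 of the other 2 tested urothelial genes were called by edgeR or DESeq2 or had an unadjusted p under 0.05, and Upk3a had at most 13 counts. Upk1b and Upk2, those other genes, had log2 fold changes of 0.34 and 1.62, opposite in sign to that of Upk1a. The summed CPM of the 4 urothelial genes, nearly all of it Upk1a in WT, ran from 60.3 to 75.7 in WT and from 21.2 to 38.2 in Ocln-KO. The Upk1a call was lost without WT replicate 1, 2 or 3 and without Ocln-KO replicate 2. Its part in the Krt7 difference was not tested. In bulk tissue, fewer cells of a type and less RNA per cell cannot be told apart.

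Krt19, a small type I keratin of simple and ductal epithelia, was called higher. It stood at 65.5, 76.2 and 63.8 CPM in WT and at 124, 89.6 and 142 CPM in Ocln-KO. Each Ocln-KO library was above each WT library, and the Ocln-KO libraries were spread more widely. The means were 68.5 ± 6.69 and 118 ± 26.6 CPM (SD, n = 3 each), and the log2 fold change was 0.79 (SE 0.17, 95% CI 0.40 to 1.18, adjusted p = 0.0336, edgeR). It was 0.64 with an adjusted p of 0.0319 without Ocln-KO replicate 3, the library with the highest Krt19. The call was lost without WT replicate 1, 2 or 3 (adjusted p = 0.129, 0.0749 and 0.126) and without Ocln-KO replicate 1 (adjusted p = 0.0525). The count ratio of Krt19 to Krt18, added after the values were seen and not tested, was 0.158, 0.174 and 0.125 in WT and 0.237, 0.209 and 0.349 in Ocln-KO. These ratios did not overlap either, and the log2 difference was 0.77. Mesothelial cells, which cover the organ, also contain Krt19, and 0 of the 8 mesothelial genes were called by edgeR or by DESeq2 and 0 had an unadjusted p under 0.05, with summed CPM of 26.9 to 48.9 in WT and 30.0 to 43.5 in Ocln-KO. Over all tested genes, 3.91% were called higher and 5.04% lower by edgeR, and 13.9% were higher and 15.2% lower at an unadjusted p under 0.05. The summed mesothelial level overlapped between the genotypes, and its part in the Krt19 difference was not tested.

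Krt20, a type I keratin of intestinal and urothelial surface cells, was close to the detection limit. Its counts were 13, 22 and 20 in WT and 36, 7 and 7 in Ocln-KO. Ocln-KO replicate 1 had the highest count of the 6 libraries and the other 2 Ocln-KO libraries had the lowest. The log2 fold change was 0.02 (SE 0.72, 95% CI -1.66 to 1.69, adjusted p = 0.992, edgeR), an interval that covers both a marked fall and a marked rise.

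Krt14, the type I keratin of basal cells, was called higher. It stood at 30.0, 26.1 and 29.4 CPM in WT and at 47.1, 42.8 and 37.8 CPM in Ocln-KO. The genotypes did not overlap. The means were 28.5 ± 2.14 and 42.6 ± 4.67 CPM (SD, n = 3 each), and the log2 fold change was 0.58 (SE 0.11, 95% CI 0.32 to 0.84, adjusted p = 0.0276, edgeR). It was 0.66 with an adjusted p of 0.0137 without Ocln-KO replicate 3. The call was lost without WT replicate 1, 2 or 3 (adjusted p = 0.103, 0.0864 and 0.0949) and without Ocln-KO replicate 2 (adjusted p = 0.0703). Krt14 shares 5.91% of its 75-base windows with Krt16, which had 1 count over the 6 libraries. Among 10270 genes with a mean of at least 10 CPM, those whose centred log2 CPM followed Krt14 most closely over the 6 libraries were Ociad2, Per3 and Abca8a, with root mean square differences of 0.0574, 0.0733 and 0.0752.

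Krt5, the type II partner of Krt14, stood at 41.7, 43.8 and 49.8 CPM in WT and at 54.6, 47.4 and 60.5 CPM in Ocln-KO. Ocln-KO replicate 2 lay within the WT range. The log2 fold change was 0.26 (SE 0.12, 95% CI -0.01 to 0.54), with an unadjusted p of 0.0571 and an adjusted p of 0.186 by edgeR. Krt15, a further type I keratin of basal cells, stood at 18.6, 10.6 and 12.0 CPM in WT and at 20.2, 14.6 and 12.4 CPM in Ocln-KO. The ranges overlapped over most of their length. Krt15 had a log2 fold change of 0.20 (SE 0.26, 95% CI -0.40 to 0.79, adjusted p = 0.659, edgeR).

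**Figure D2:**
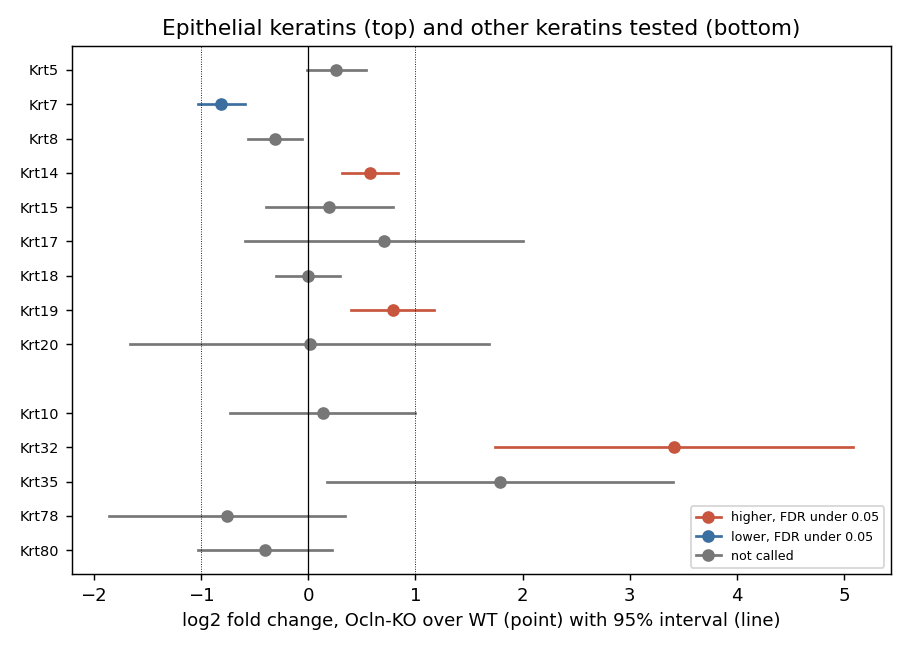
Log2 fold change, Ocln-KO against WT, of the 9 tested keratins (top) and of Krt10, Krt32, Krt35, Krt78 and Krt80 (bottom). Bars give the 95% confidence interval and dotted lines mark a log2 fold change of 1 in either direction. Among the 9, the intervals of Krt7 (-1.03 to -0.59), Krt14 (0.32 to 0.84) and Krt19 (0.40 to 1.18) lie off 0. That of Krt8 (-0.56 to -0.06) does so too, and those of Krt17 and Krt20 are the widest of the 9. Below, the wide intervals of Krt32 (1.74 to 5.08) and Krt35 (0.17 to 3.40) also lie off 0.

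The basal pair was compared with the simple pair within each library. The summed counts of Krt5 and Krt14 over those of Krt8 and Krt18 gave 0.107, 0.102 and 0.0994 in WT and 0.135, 0.139 and 0.165 in Ocln-KO. Each Ocln-KO library was above each WT library. The log2 means were -3.28 ± 0.06 and -2.78 ± 0.16, a difference of 0.50 (exact two-sided permutation test, p = 0.1, the smallest possible), and 0.41 without Ocln-KO replicate 3. Within the basal pair, the count ratio of Krt5 to Krt14 was 1.39, 1.68 and 1.69 in WT and 1.16, 1.11 and 1.6 in Ocln-KO. Ocln-KO replicate 3 lay among the WT libraries. The log2 means were 0.66 ± 0.16 and 0.35 ± 0.29, a difference of -0.32 (exact two-sided permutation test, p = 0.2), and -0.48 without Ocln-KO replicate 3.

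**Figure D3:**
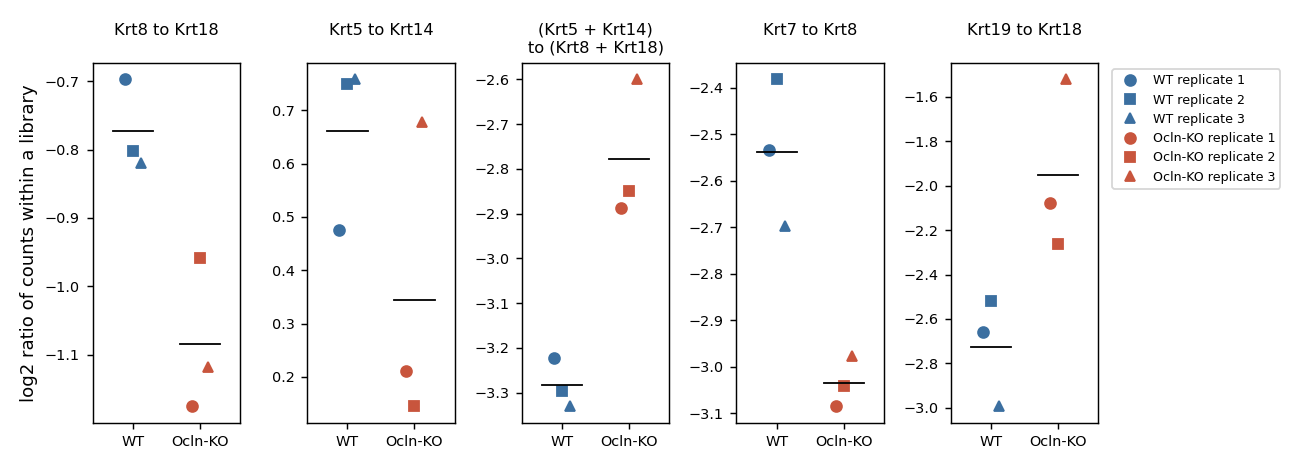
Log2 ratios of keratin counts within each library, 1 point per library, for WT and Ocln-KO. The genotypes do not overlap for Krt8 to Krt18, for the basal to simple pairs, for Krt7 to Krt8 or for Krt19 to Krt18, and they overlap for Krt5 to Krt14.

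Among 6 tested genes of basal cells other than keratins, 0 were called by edgeR, with 2 higher at an unadjusted p under 0.05, against 13.9% of all tested genes. DESeq2 called 1 of the 6 higher, against 1528 among all genes. In edgeR, 1 was called higher with total counts only, with no filter, with at least 10 counts in every library, and without Ocln-KO replicate 1 or 3. Among all genes those fits called 1175, 942, 805, 782 and 748 higher in that order, against 770 in the main fit. For 3 of the 6 genes the genotypes did not overlap, against 36.3% of all tested genes. These were Cldn1 and Trp63, which were higher in Ocln-KO, and Itga6, which was lower. Cldn1, a claudin of basal cells, was at 53.2 to 54.6 CPM in WT and 66.3 to 106 CPM in Ocln-KO (log2 fold change 0.63, adjusted p = 0.0535). Itga6 was at 74.1 to 79.0 CPM in WT and 54.4 to 71.3 CPM in Ocln-KO (log2 fold change -0.21, adjusted p = 0.272). Of the 6 genes, 4 had a log2 fold change above 0 and 2 below. The 6 genes and Aqp3 together had a summed CPM of 245 to 253 in WT and 250 to 316 in Ocln-KO, so the ranges overlapped. Trp63, the transcription factor that defines basal cells, averaged 57.3 ± 5.24 CPM in the WT libraries and 72.2 ± 8.42 CPM in Ocln-KO (log2 fold change 0.33, adjusted p = 0.106). The part of these genes in the Krt14 difference was not tested.

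Krt17 and Krt4 had few counts. Krt17, a type I keratin of basal and wounded epithelia, had 26, 11 and 10 counts in WT and 26, 12 and 31 counts in Ocln-KO. The ranges overlapped and the log2 fold change was 0.70 (SE 0.56, 95% CI -0.59 to 2.0, adjusted p = 0.450, edgeR), moving to 1.24 without WT replicate 1 and 0.46 without WT replicate 3 or Ocln-KO replicate 3. The longest stretch of coding sequence common to any pair of the 10 keratins joins Krt14 and Krt17 and is shown to give the extent of exact identity among these genes. It runs over 71 bases, from base 1216 of the Krt14 and base 1105 of the Krt17 coding sequence.
Krt14 and Krt17: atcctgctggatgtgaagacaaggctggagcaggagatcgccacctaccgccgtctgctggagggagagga

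The stretch is shorter than the 75-base windows used to look for shared sequence, and no such window of Krt17 was found in another gene. Krt4, a type II keratin of stratified mucosal epithelia, had 1, 0 and 0 counts in WT and 8, 14 and 9 counts in Ocln-KO. It was too low for the filter and was not tested in the same fit. Krt4 had a mean of 0.318 ± 0.105 CPM in Ocln-KO (SD, n = 3). Leaving aside the counting error of that mean, Krt4 was 3.84-fold higher than a floor of 3 counts in each WT library. Without the filter its adjusted p was 0.0468 by edgeR, and by DESeq2, the study's tool, it was 0.0189, so Krt4 passed the study's limits in those fits, with fitted log2 fold changes of 4.65 and 5.01 that depend on how the 0 counts are treated. The highest of these counts, 14, came from a library of 31570990 counts.

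Levels were compared between keratins as CPM per kb of the principal GENCODE transcript. In WT the order was Krt18 at 315, Krt8 at 135, Krt19 at 43.5, Krt5 at 20.5, Krt14 at 16.8, Krt7 at 11.1 and Krt15 at 8.08 CPM per kb, with Krt17 at 0.277, Krt20 at 0.265 and Krt4 at 0.00418. Krt7 and Krt15 overlapped between libraries, as did Krt17 and Krt20, so the order within those pairs is not resolved by this length. In Ocln-KO the means were 315 for Krt18, 109 for Krt8, 75.2 for Krt19, 24.6 for Krt5, 25.1 for Krt14, 9.26 for Krt15 and 6.34 for Krt7. Krt14 and Krt5 overlapped there. The Krt7 transcript is long, and per kb of coding sequence Krt7 stood at 33.2 in WT, above Krt5 at 25.9.

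**Figure D4:**
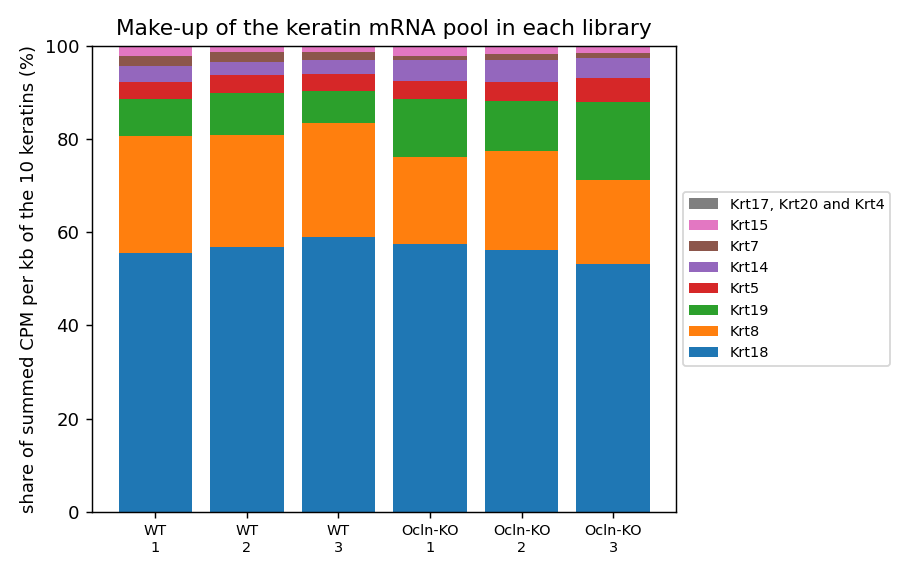
Share of each keratin in the summed CPM per kb of the 10 keratins, as stacked bars, 1 bar per library. The Krt8 share is 24.0% to 25.1% in the WT libraries and 18% to 21.2% in the Ocln-KO libraries, and the Krt19 share is 6.75% to 9.06% and 10.7% to 16.9%.

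As shares of the summed CPM per kb of the 10 keratins, Krt18 took 57.1% ± 1.76 in WT and 55.6% ± 2.22 in Ocln-KO (SD, n = 3 each). Krt8 took 24.5% ± 0.588 in WT and 19.3% ± 1.72 in Ocln-KO, and Krt19 took 7.94% ± 1.15 and 13.3% ± 3.20. The shares of Krt8 and Krt19 did not overlap between the genotypes, and shares of 1 sum move against each other by construction. The ratio of type II to type I keratins, added after the values were seen and not tested, was 0.446, 0.426 and 0.431 in WT and 0.310, 0.362 and 0.320 in Ocln-KO. Per kb of coding sequence the WT libraries also lay above the Ocln-KO libraries, at 0.532 to 0.553 against 0.371 to 0.435. The summed CPM of the 10 keratins itself overlapped between the genotypes, at 870, 892 and 998 in WT and 1027, 873 and 873 in Ocln-KO.

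The table lists 44 further keratin genes, of which 22 had no count in any library and 5 were tested. Krt32, a type I hair keratin, had 13, 8 and 9 counts in WT and 134, 131 and 21 in Ocln-KO. Each Ocln-KO library was above each WT library, with Ocln-KO replicate 3 near them. The log2 fold change of Krt32 was 3.41 (SE 0.72, 95% CI 1.74 to 5.08, adjusted p = 0.0335, edgeR), and 3.89 with an adjusted p of 0.00117 without Ocln-KO replicate 3. The call was lost without any 1 of the other 5 libraries, at adjusted p-values from 0.0545 to 0.129, with limma-voom (adjusted p = 0.135) and with the replicate block (adjusted p = 0.0908). With 8 and 9 counts in WT replicates 2 and 3, Krt32 was left out of the fit that asked for at least 10 counts in every library, so it entered the test mainly through its Ocln-KO counts. Krt35, a further hair keratin, had 3, 5 and 21 counts in WT and 38, 28 and 24 in Ocln-KO, with a log2 fold change of 1.79 (adjusted p = 0.138, edgeR). Krt35 likewise entered the test mainly through its Ocln-KO counts. Krt10, Krt78 and Krt80, with log2 fold changes of 0.14, -0.76 and -0.40, were not called (adjusted p = 0.845, 0.336 and 0.365, edgeR). Krt6a, Krt6b and Krt13 had 0 counts in each library and Krt16 had 1 count in Ocln-KO replicate 1. Krt6a, Krt6b and Krt16 are among the keratins that wounded epidermis is known to induce, as is Krt17.

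The proteins that link or bind keratin filaments were described as a list of 15 genes, all tested. Of these, 1 was called higher and 0 lower, 9 were higher at an unadjusted p under 0.05, and the median log2 fold change was 0.34 against 0.01 over all genes. Over all tested genes, 3.91% were called higher and 13.9% were higher at an unadjusted p under 0.05, and 36.3% did not overlap between the genotypes. Among the 15 genes 10 did not overlap, and DESeq2 called 4 higher, against 1528 among all genes. Tchp, which encodes the keratin-binding protein trichoplein, was at 7.91, 8.50 and 9.07 CPM in WT and at 13.1, 11.6 and 12.9 CPM in Ocln-KO. Tchp was called at a log2 fold change of 0.56 (SE 0.14, adjusted p = 0.0465, edgeR). Plec, which encodes the cytolinker plectin, ranged from 379 to 435 CPM in WT and from 483 to 660 CPM in Ocln-KO (adjusted p = 0.0778), and Ppl, which encodes periplakin, at 111 to 125 and 127 to 200 CPM (adjusted p = 0.0833). Neither was called, although their libraries did not overlap. Of 10 tested intermediate filament genes of other classes, Nes, which encodes nestin, was the 1 called. It rose from 16.0 ± 1.74 to 24.7 ± 1.46 CPM (log2 fold change 0.62, adjusted p = 0.0273). Vim, which encodes the mesenchymal filament vimentin, was at 66.9, 87.0 and 139 CPM in Ocln-KO and 58.0 to 71.1 CPM in WT (adjusted p = 0.137).

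Of 13 tested transcription factors of epithelia, 2 were called higher and 0 lower, against 3.91% and 5.04% of all tested genes, with a median log2 fold change of 0.31. Tfap2c, an AP-2 factor, was at 5.93, 6.92 and 4.87 CPM in WT and at 13.4, 14.2 and 14.9 CPM in Ocln-KO (log2 fold change 1.26, SE 0.17, adjusted p = 0.0128). Elf5, an ETS factor of glandular epithelia, was at 1.26, 1.06 and 0.242 CPM in WT and at 3.37, 12.8 and 4.38 CPM in Ocln-KO (log2 fold change 3.0, SE 0.69, adjusted p = 0.0399). The genotypes did not overlap for either factor. Elf5 had 9 counts in WT replicate 3 and was left out of the fit that asked for at least 10 counts in every library, and limma-voom called 1 of the 13 factors. Of 4 tested genes of squamous differentiation, 0 were called by edgeR, with 2 higher and 1 lower at an unadjusted p under 0.05, against 13.9% and 15.2% of all tested genes, and 2 called higher by DESeq2, which called 1528 genes higher in all.

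**Figure D5:**
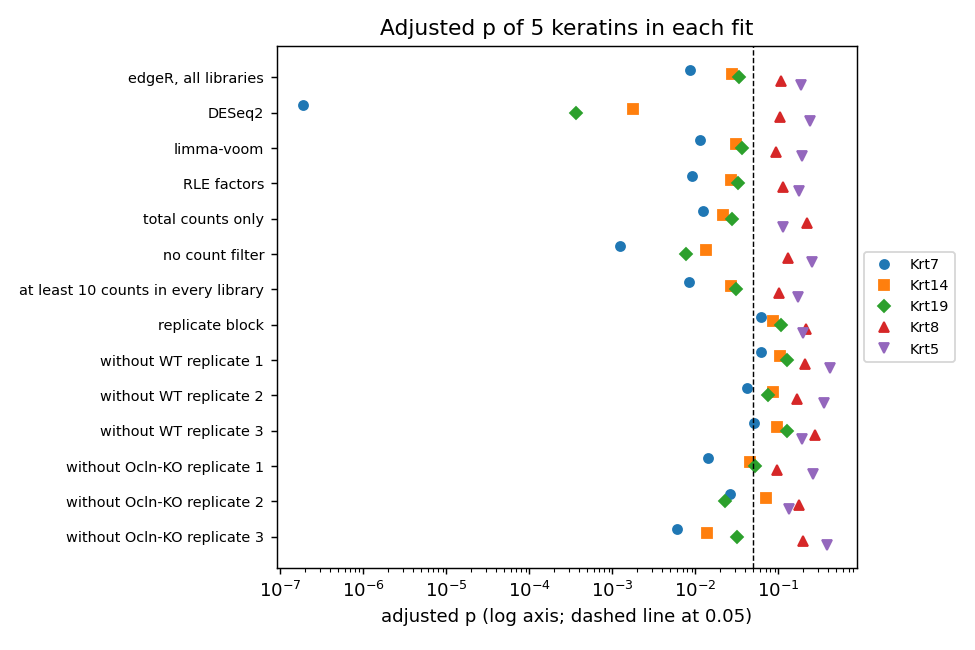
Adjusted p of Krt5, Krt7, Krt8, Krt14 and Krt19 under each fit of the counts, on a log axis, with a dashed line at 0.05. The fits include those with each library left out in turn. Krt7 passed in 10 of 13 alternatives, Krt14 and Krt19 in 8 each, and Krt5 and Krt8 in 0.

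General epithelial genes did not move one way. Of 13 tested, 4 were called higher and 1 lower, against 3.91% and 5.04% of all tested genes, and the median log2 fold change was -0.16. Cldn4, a claudin of tight junctions, rose by 1.07 (adjusted p = 0.00771), and Marveld2, which encodes tricellulin, rose by 0.89 (adjusted p = 0.0257) on the log2 scale. St14, a membrane protease, rose by 0.46 (adjusted p = 0.0322) on the log2 scale. Rab25, an epithelial Rab protein, fell by 0.75 (adjusted p = 0.0228), a call lost without WT replicate 1 or 3 and without Ocln-KO replicate 2. The summed CPM of the 13 genes ran from 2094 to 2324 in WT and from 1716 to 2235 in Ocln-KO, so the genotypes overlapped.

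Markers of the cell types in the duct and around it were compared in the same fit. Over all tested genes, 3.91% were called higher and 5.04% lower, 13.9% were higher and 15.2% lower at an unadjusted p under 0.05, and DESeq2 called 1528 higher and 1637 lower. Of 6 clear cell genes, 4 were called lower: Atp6v0d2 by a log2 fold change of -1.56, Atp6v0a4 by -1.21, Atp6v1b1 by -0.78 and Foxi1 by -0.77 (adjusted p = 0.0201, 0.0245, 0.0458 and 0.0332, edgeR). Their summed CPM ran from 134 to 180 in WT and from 67.6 to 94.9 in Ocln-KO. These calls went to 0 without WT replicate 1, 2 or 3 and to 2 without Ocln-KO replicate 2. Of 6 tested principal cell genes, Aqp9 was called lower (log2 fold change -0.46, adjusted p = 0.028), 2 were called lower by DESeq2, and the summed CPM overlapped, at 27636 to 33172 in WT and 19217 to 28238 in Ocln-KO. Of 5 smooth muscle genes, Myh11 was called higher (log2 fold change 0.77, adjusted p = 0.0296), 5 were higher at an unadjusted p under 0.05 and 3 were called by DESeq2, and the summed CPM ran from 1152 to 1387 in WT and from 1568 to 2082 in Ocln-KO. Among 8 macrophage genes 0 were called by edgeR, with 6 higher at an unadjusted p under 0.05 and 4 called by DESeq2, and their summed CPM ran from 163 to 189 in WT and from 192 to 379 in Ocln-KO. Of 7 tested brain genes Mbp was called higher (log2 fold change 0.62, adjusted p = 0.0315), and 1 was higher and 2 were lower at an unadjusted p under 0.05. Of 6 sperm genes, 5 endothelial genes and 1 tested lymphocyte gene 0 were called, with 0, 1 lower and 1 higher at an unadjusted p under 0.05 and 0, 0 and 1 called by DESeq2. The calls of Aqp9, Myh11 and Mbp were each lost without WT replicate 1, 2 or 3 or Ocln-KO replicate 2, and that of Mbp also without Ocln-KO replicate 1. By contrast, 4 smooth muscle, 6 macrophage and 1 lymphocyte genes were called higher without Ocln-KO replicate 1, and 1 sperm gene without Ocln-KO replicate 3. The part of these markers in the keratin differences was not tested.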

How the data were processed

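Total RNA of whole epididymis was depleted of rRNA, made into directional libraries and sequenced as paired ends. The authors aligned reads to GRCm38 (HISAT2 2.0.4, per the submitters' processing notes) and counted them per gene with HTSeq. The deposited values are raw counts, not normalized; the strand setting and the handling of reads with several alignments are not given in the sources used here. Floors of 3 counts cover counting error only, whereas the 95% intervals of fold changes include the spread between libraries.

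Counts were filtered with filterByExpr, which kept 19691 of the 32046 genes with a count, scaled by TMM factors and compared with glmQLFit and glmQLFTest (R 4.3.3, edgeR 4.0.16), with p-values adjusted by Benjamini-Hochberg across the genes tested and a call at an adjusted p under 0.05. The standard error is the log2 fold change over the square root of F. CPM used effective library sizes, for which 1 count equals 0.0267 to 0.0314 CPM. Ratios within a library used a pseudocount of 0.5 and an exact permutation test. DESeq2 1.42.0, limma-voom (limma 3.58.1), other scalings and filters, a replicate block and the omission of each library were alternatives. Scripts were tested on simulated data. Gene models are from GENCODE vM21 and promoters from RefSeq (GRCm38.p6); matches of 75-base windows were sought among all annotated transcripts.

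The keratins and all gene lists were chosen with earlier results of these data known. Named were all 10 keratins, other tested keratins, and up to 4 called genes of each list with the largest fold change; other names were chosen after their values were seen. Values of 1 called gene are not reported here. Of the gene symbols, 27 had been altered by a spreadsheet and 2 were repeated.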

Additional observations from a re-analysis of the deposited data

How the results depend on the processing

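Krt7, Krt14 and Krt19 kept their direction in all 13 alternatives and their calls with DESeq2, limma-voom, RLE factors, total counts, no filter and at least 10 counts in every library. The study's methods speak of 3 pairs of mice without saying what a pair shares, and the main fit treated the libraries as unpaired. Deviations of same-numbered libraries from their genotype means correlated at -0.053, -0.031 and -0.0026, and no WT library correlated best with its own number. With 3 libraries per genotype, these correlations cannot show whether the mice were paired. With a replicate block, 0 keratins were higher and 0 lower, with log2 fold changes of -0.81 for Krt7, 0.58 for Krt14 and 0.77 for Krt19, and 10 genes of all were higher and 31 lower. Leaving out 1 library gave 0 to 2 keratins higher and 0 to 1 lower, and 4 to 782 of all genes higher and 19 to 944 lower, with the lowest counts without WT replicate 1. Log2 fold changes then ran from -0.84 to -0.75 for Krt7, 0.50 to 0.66 for Krt14, 0.64 to 0.96 for Krt19, -0.019 to 0.47 for Krt15, 0.46 to 1.24 for Krt17, -0.11 to 0.093 for Krt18 and -1.24 to 0.39 for Krt20. They ran from -0.37 to -0.23 for Krt8 and from 0.17 to 0.35 for Krt5, and neither was called. Without Ocln-KO replicate 3 they were -0.23 for Krt8 (adjusted p = 0.196, edgeR) and 0.17 for Krt5 (adjusted p = 0.383, edgeR). The cause of these changes was not tested. With the added fold limit, 0 keratins were higher and 0 lower, and 293 and 335 of all genes. DESeq2 called 1528 genes higher and 1637 lower. With total counts only, 1175 were higher and 674 lower, against 770 and 992, and the median log2 fold change moved from 0.01 to 0.09. Krt18 turned to 0.0042 with DESeq2, 0.0057 with RLE factors and 0.085 with total counts. Krt20 turned to -0.38 with limma-voom and -0.36 with the block. DESeq2 and the fit with no filter also called Krt4 higher. Of other filaments, linkers, transcription factors and general epithelial genes, with 1, 1, 2 and 4 called higher, 0, 0, 0 and 0 were called without WT replicate 1, 0, 0, 1 and 1 without WT replicate 2 or Ocln-KO replicate 2, and 0, 0, 0 and 1 without WT replicate 3, while 4 other filaments were called without Ocln-KO replicate 1 and 3 linkers without Ocln-KO replicate 3. Of basal cell genes, 1 was called higher in 6 alternatives, DESeq2 among them, against 0. With the block, 0 other filaments, linkers, transcription factors or general epithelial genes were called higher. It also left 0 general epithelial genes and 0 clear cell genes called lower, and 0 urothelial, principal, smooth muscle or brain genes called. Tchp was not called with no filter or without Ocln-KO replicate 1. The ratios of Krt8 to Krt18, Krt5 to Krt14 and basal to simple pairs kept their direction with a pseudocount of 5, with paired differences and without each library, and those of Krt7 to Krt8 and Krt19 to Krt18 without each library. The ratio of type II to type I keratins was recomputed only per kb of coding sequence. Krt4, Krt17 and Krt20 had few counts, and the effect of depth on them was not tested.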
